A study of Mus musculus with 11 samples.

Results

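The genes described here are 7 markers of microglia, the resident macrophages of the brain, among 4338 genes with ribosome footprints in mouse cortex after stroke. They were taken from a list of microglial genes present in the deposited table: the receptor genes Cx3cr1, P2ry12 and Csf1r, the complement genes C1qa, C1qb and C1qc, and the lysosomal protease gene Ctss. Each gene was represented by the transcript with the highest summed count, and all 7 passed the filter on low counts. Footprints are the short stretches of messenger RNA shielded by a translating ribosome, so the values are neither protein levels nor, without total RNA libraries, translation rates per transcript.

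All animals were wildtype C57BL6 mice aged 7 to 8 weeks under isoflurane. In the occlusion groups a filament passed up from the right external carotid artery blocked the middle cerebral artery (MCAO) for 35 min, followed by 3 h of reperfusion, and animals were kept only where blood flow fell and recovered as required. Cortex was taken from the occluded (ipsilateral) side in 4 libraries and from the opposite (contralateral) side in 4. Sham animals (3 libraries) had the arteries exposed for the same period with no filament, and the side of their cortex is not stated. A replicate number marks a day of surgery (sham 1, 2 and 5; contralateral 1, 4, 5 and 6; ipsilateral 2, 4, 5 and 6); whether a library holds 1 animal or several, and whether hemispheres with 1 number share an animal, is left unstated. For the 4 ipsilateral samples the tissue entry gives the contralateral hemisphere; their titles and descriptions give the ipsilateral one, and these were followed.

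Microglia survey the tissue through a small set of surface receptors. Cx3cr1 binds fractalkine, the Cx3cl1 product displayed by neurons; P2ry12 senses ADP from injured cells and directs microglial processes towards it; Csf1r, the receptor for colony stimulating factor and interleukin 34, maintains microglial survival. The C1qa, C1qb and C1qc products are the chains that assemble in equal parts into C1q, the recognition molecule of the classical complement pathway, made in the brain mostly by microglia, and Ctss encodes cathepsin S, a cysteine protease of lysosomes that also acts outside the cell.

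The 3 C1q genes are neighbours on the minus strand of chromosome 4 in mm10: C1qb from 136880129 to 136886187, C1qc from 136889804 to 136893065 and C1qa from 136895917 to 136898803. Ctss lies on the plus strand of chromosome 3 from 95526786 to 95556403, P2ry12 on the minus strand of chromosome 3 from 59216272 to 59262871 and Cx3cr1 on the minus strand of chromosome 9 from 119901616 to 120069879. No exon of the 7 representative transcripts overlaps an exon of another annotated gene. Of the 28-nt words of the Cx3cr1 transcript 2.63% occur in another gene, and of the other 6 transcripts 0%.

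RefSeq promoter sequences (GRCm38.p6) of 5 members are shown because PU.1, an ETS-family factor of macrophages, is known to bind purine-rich words with a GGAA core. C1qa had no promoter window and Csf1r was left out, so neither is in the counts of member windows. The word AGGAAGT, on either strand, occurred in 4 of the 5 windows of 250 bases before to 50 after the start, and in 9.35% of all 32851 promoter windows of that length. The longer word GAGGAAGT, which contains it, occurred in 2 of the 5 (C1qc and Ctss) and in 3.20% of all windows. The words were chosen after these windows had been read, and a match is a description of letters, not a site. The count of 4 of 5 covers only part of the members and cannot be read as an excess over all windows. Each stretch of 100 bases below runs 5′ to 3′ along the gene's strand, with AGGAAGT or its reverse complement ACTTCCT in capitals.
C1qb, chr4:136886201-136886300: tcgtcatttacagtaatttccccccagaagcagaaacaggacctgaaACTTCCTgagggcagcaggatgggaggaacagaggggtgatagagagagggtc
C1qc, chr4:136893055-136893154: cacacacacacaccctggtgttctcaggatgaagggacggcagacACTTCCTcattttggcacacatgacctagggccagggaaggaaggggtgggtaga
Ctss, chr3:95526696-95526795: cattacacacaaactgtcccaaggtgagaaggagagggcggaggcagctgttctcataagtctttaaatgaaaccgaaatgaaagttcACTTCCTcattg
P2ry12, chr3:59262986-59263085: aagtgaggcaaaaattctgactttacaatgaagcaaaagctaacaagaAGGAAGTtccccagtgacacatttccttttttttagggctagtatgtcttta
Cx3cr1, chr9:120068297-120068396: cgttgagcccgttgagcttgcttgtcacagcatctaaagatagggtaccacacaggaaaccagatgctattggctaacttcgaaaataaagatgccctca
The word began 53 bases before the start in C1qb, 52 in P2ry12, 195 in C1qc and 2 in Ctss, and was in neither strand of the Cx3cr1 window.

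Library totals, with each gene counted once, ran from 35068 (ipsilateral replicate 4) to 571351 (contralateral replicate 6), with group medians of 194996 for sham, 227277 for contralateral and 103476 for ipsilateral cortex. Counts of the members over all 11 libraries were 136 for P2ry12, 151 for Cx3cr1, 180 for C1qc, 258 for C1qb, 329 for C1qa, 405 for Ctss and 444 for Csf1r, so single libraries rest on few reads. In the 2 shallowest libraries, sham replicate 2 and ipsilateral replicate 4, no member exceeded 10 counts. Neuron markers identified the tissue as brain: 15 of 15 were tested, and their summed level was 21002 to 22964 CPM in sham cortex. CPM is the usual depth-scaled count, with library totals adjusted by edgeR's TMM factors.

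Comparing ipsilateral with sham cortex asks how footprints on microglial genes stood in the ischaemic hemisphere 3 h after reperfusion. All 7 members had higher fitted levels in ipsilateral cortex, by 0.55 to 1.35 on the log2 scale with a median of 0.72, where the median over all 3835 genes tested was 0.00. None passed the edgeR test over all genes: 0 of 7 were called (lowest adjusted p = 0.175, highest 0.758), where 0.104% of all genes were called. Limma-voom also called 0 of 7; DESeq2 called 0 of the 3 members it gave an adjusted p (C1qa, Csf1r and Ctss) and gave none for the other 4. At an unadjusted p under 0.05 stood 5 of 7, all higher (4.28% of all genes were higher and 3.47% lower at that level). For 4 of 7 the ipsilateral range lay wholly above the sham range, as it did for 3.91% of all genes. In footprints of bulk tissue, more microglia in the tissue taken, more RNA per microglial cell and more ribosomes per transcript cannot be told apart.

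Cx3cr1 had the largest difference of the 7. It measured 39.3, 15.7 and 63.5 CPM in sham replicates 1, 2 and 5, and 89.7, 147, 124 and 129 CPM in ipsilateral replicates 2, 4, 5 and 6. The ranges did not overlap. Sham replicate 2 was lowest on a single read, for which the 95% Poisson interval of counting error runs from 0.398 to 87.5 CPM. The means were 39.5 ± 23.9 (SD, n = 3) and 122 ± 23.8 CPM (n = 4), and the fitted change was 1.35 ± 0.39 (log2, SE), a 2.55-fold difference with an edgeR adjusted p of 0.175 and rank 29 of 3835 by unadjusted p.

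P2ry12 measured 51.0, 62.8 and 68.8 CPM in sham replicates 1, 2 and 5 and 105, 88.0, 86.6 and 86.0 CPM in ipsilateral replicates 2, 4, 5 and 6. Both groups were narrow and did not overlap, with replicate 2 alone above 100 CPM. The fitted change was 0.64 ± 0.41 (edgeR adjusted p = 0.758), on 30 sham and 34 ipsilateral reads, and 0.24 (adjusted p = 0.969) with the replicate number, the day of surgery, as a block.

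Csf1r, on the plus strand of chromosome 18 from 61100598 to 61132149 in mm10, measured 188, 62.8 and 212 CPM in sham replicates 1, 2 and 5 and 254, 88.0, 198 and 370 CPM in ipsilateral replicates 2, 4, 5 and 6. The groups overlapped, and the lowest value of each belonged to a shallow library (4 reads in sham replicate 2, 3 in ipsilateral replicate 4). Its change was 0.55 ± 0.30, the smallest of the 7 (edgeR adjusted p = 0.695), and 0.23 without ipsilateral replicate 6.

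Among the complement genes, C1qc stood furthest from sham. It measured 51.0, 62.8 and 90.0 CPM in sham replicates 1, 2 and 5 and 157, 176, 148 and 112 CPM in ipsilateral replicates 2, 4, 5 and 6, with no overlap. The change was 1.08 ± 0.33, 2.11-fold (edgeR adjusted p = 0.241). C1qa measured 137, 110 and 148 CPM in the same sham libraries and 284, 205, 198 and 189 CPM in the ipsilateral ones, again with no overlap and with replicate 2 well above the rest. Its change was 0.71 ± 0.27 (adjusted p = 0.419).

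C1qb behaved less evenly: 94.2, 141 and 164 CPM in sham replicates 1, 2 and 5, and 157, 293, 111 and 318 CPM in ipsilateral replicates 2, 4, 5 and 6. Ipsilateral replicates 4 and 6 were high, whereas replicates 2 and 5 lay within the sham range. The change was 0.72 ± 0.31 (edgeR adjusted p = 0.506), and it was 0.35 without ipsilateral replicate 6 and 0.34 with the replicate block.

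Ctss measured 161, 62.8 and 201 CPM in sham replicates 1, 2 and 5 and 314, 176, 247 and 249 CPM in ipsilateral replicates 2, 4, 5 and 6. Of the 4 ipsilateral libraries 3 lay above the highest sham library, and only the shallowest overlapped it. The change was 0.72 ± 0.27 (edgeR adjusted p = 0.420).

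**Figure D1:**
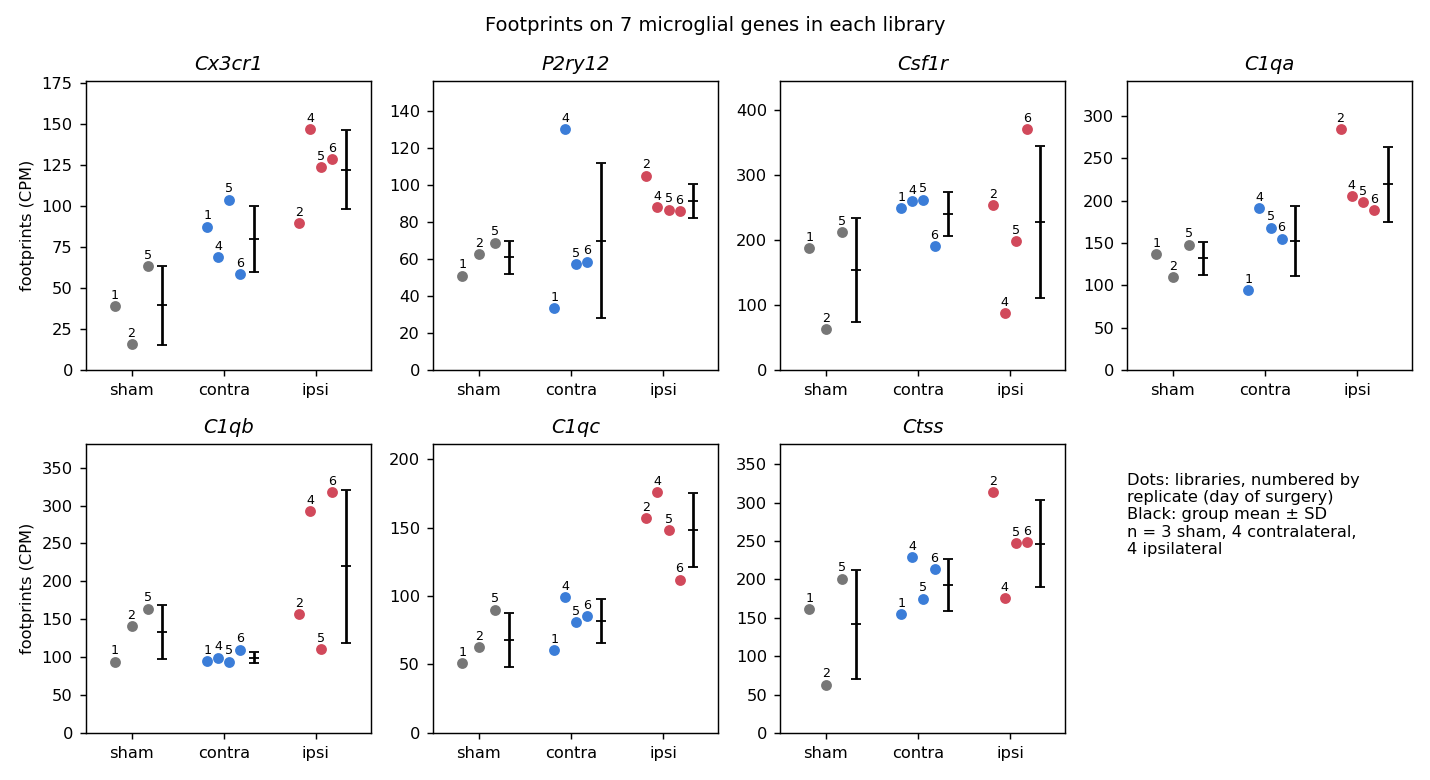
Footprint level in CPM (vertical axis, from 0) of each member in 3 sham, 4 contralateral and 4 ipsilateral libraries; dots are libraries numbered by replicate, black marks the group mean ± SD. Ipsilateral dots lie above all sham dots for Cx3cr1, P2ry12, C1qa and C1qc, and the groups overlap for Csf1r, C1qb and Ctss.

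Within days of surgery, ipsilateral levels exceeded sham levels for 7 of 7 members on day 2, where the summed level was 1360 against 518 CPM, and 5 of 7 on day 5, where it was 1113 against 948 CPM. On day 5 C1qb (111 against 164 CPM) and Csf1r (198 against 212 CPM) were lower in ipsilateral cortex. Day 2 rests on the shallow sham replicate 2. The other 5 members were higher on both days. The ratios on days 2 and 5 were 5.71 and 1.95 for Cx3cr1 and 2.50 and 1.65 for C1qc. They were 2.58 and 1.34 for C1qa, 5 and 1.23 for Ctss, and 1.67 and 1.26 for P2ry12.

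The comparison of ipsilateral with contralateral cortex sets the occluded hemisphere against the unoccluded one in animals with the same operation; it shares the ipsilateral libraries with the comparison above. The largest differences were those of C1qb, at 1.06 ± 0.28 (log2, SE; 2.08-fold), and C1qc, at 0.80 ± 0.28, followed by Cx3cr1 at 0.58 ± 0.31 and C1qa at 0.55 ± 0.23. Every member had a fitted change above 0 (0.10 to 1.06, median 0.55, where the median over all genes tested was 0.01). No member passed the edgeR test over all genes (0 of 7; 0.365% of all genes were called, 0.339% as higher), limma-voom called 0 as well, and DESeq2 called 0 of 6, with no adjusted p for P2ry12. At an unadjusted p under 0.05 stood the 3 C1q genes (3 of 7, all higher; of all genes 4.85% were higher and 2.76% lower), and for 2 of 7 the groups did not overlap (2.35% of all genes).

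C1qb came closest to the threshold. Contralateral replicates 1, 4, 5 and 6 measured 94.3, 99.4, 94.2 and 110 CPM, a narrow band below every ipsilateral library, of which replicate 5 (111 CPM) stood only just above it. The edgeR adjusted p was 0.0808, at rank 20 of 3835. Without ipsilateral replicate 5 the change was 1.26 with an adjusted p of 0.0147, and without ipsilateral replicate 6 it was 0.69 with 0.850, the extremes over 20 alternatives. A call for C1qb thus turns on single ipsilateral libraries.

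C1qc measured 60.6, 99.4, 80.8 and 85.3 CPM in contralateral replicates 1, 4, 5 and 6, below every ipsilateral library (edgeR adjusted p = 0.312). C1qa measured 94.3, 191, 168 and 155 CPM there, so that contralateral replicate 4 just exceeded ipsilateral replicate 6 (adjusted p = 0.538); its change was 0.32 without ipsilateral replicate 2.

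For the receptors and the protease the hemispheres overlapped. Cx3cr1 measured 87.6, 68.8, 104 and 58.6 CPM in contralateral replicates 1, 4, 5 and 6, and 3 of 4 ipsilateral libraries lay above all of them (change 0.58 ± 0.31, edgeR adjusted p = 0.680, and 0.35 without contralateral replicate 6). Ctss measured 155, 229, 175 and 213 CPM contralaterally, also with 3 of 4 ipsilateral libraries above (0.42 ± 0.24, adjusted p = 0.687, and 0.25 without ipsilateral replicate 2). P2ry12 measured 33.7, 130, 57.2 and 58.6 CPM, where contralateral replicate 4 exceeded every ipsilateral library (0.52 ± 0.35, adjusted p = 0.755).

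Csf1r showed the smallest difference between hemispheres. Contralateral replicates 1, 4, 5 and 6 measured 249, 260, 262 and 190 CPM. The contralateral mean of 240 ± 34.1 CPM exceeded the ipsilateral mean of 227 ± 117 CPM (SD, n = 4 each), whereas the fitted change was 0.10 ± 0.26 (edgeR adjusted p = 0.985). Its sign differed between these measures, and the fit gave -0.20 without ipsilateral replicate 6 and -0.05 without contralateral replicate 6.

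**Figure D2:**
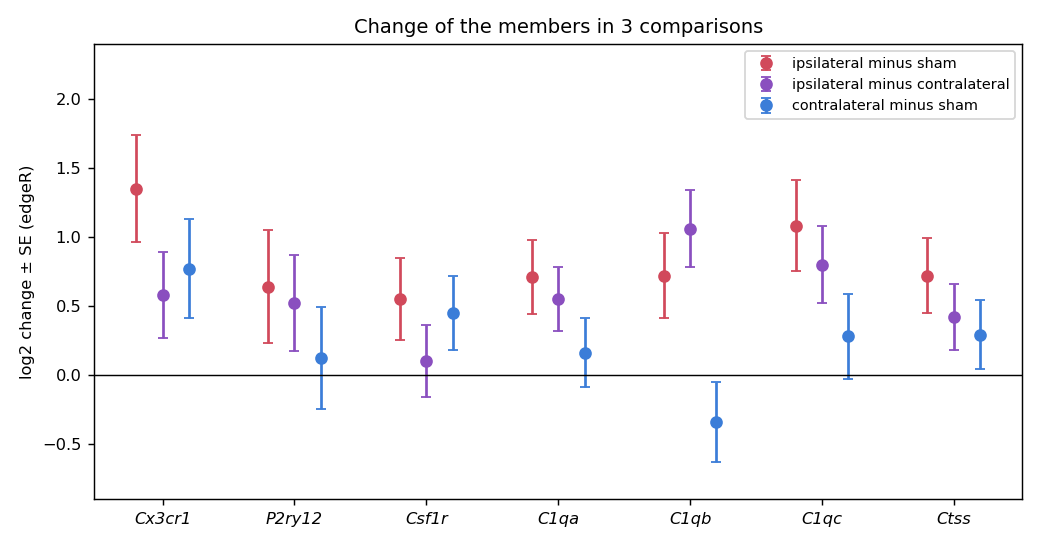
Fitted log2 change (vertical axis) with its SE for the 7 members in the 3 comparisons, which share libraries. All points of ipsilateral minus sham and of ipsilateral minus contralateral lie above 0, from 0.10 to 1.35, and C1qb is the member below 0 in contralateral minus sham.

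Days 4, 5 and 6 hold both hemispheres. Members higher on the occluded side numbered 4 of 7 on day 4, 6 of 7 on day 5 and 7 of 7 on day 6. Cx3cr1, C1qa, C1qb and C1qc were higher on each of these days; C1qb by ratios of 2.95, 1.18 and 2.89, C1qc by 1.77, 1.84 and 1.31, Cx3cr1 by 2.13, 1.19 and 2.20, and C1qa by only 1.07, 1.18 and 1.22. Csf1r was lower on the occluded side on days 4 (88.0 against 260 CPM) and 5 (198 against 262 CPM) and higher on day 6 (370 against 190 CPM). Day 4 rests on ipsilateral replicate 4, the shallowest library, with 3 reads for Csf1r and for P2ry12, 6 for Ctss and 10 for C1qb. The Poisson interval of counting error for Csf1r in that library ran from 18.1 to 257 CPM, so the day 4 counts and ratios are uncertain.

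The comparison of contralateral with sham cortex sets the opposite hemisphere after an occlusion against cortex of animals that had no filament. Of the 7 members 6 had fitted changes above 0 (49.3% of all genes did), with a median of 0.28 where that of all genes tested was 0.00. None passed the edgeR test over all genes (0 of 7; 0% of all genes were called) or limma-voom or DESeq2. Cx3cr1 alone stood at an unadjusted p under 0.05 (1 of 7, higher; of all genes 2.53% were higher and 3.13% lower at that level), with 0.77 ± 0.36 and an adjusted p of 0.862, and 3 of 4 contralateral libraries above the highest sham library. No member separated the groups fully, where 3.39% of all genes did so upwards. Within days, 4 of 7 members were higher contralaterally on day 1, where the summed level was 775 against 722 CPM. On day 5 it was 3 of 7, with sums of 942 against 948 CPM. The median change was 0.14 without the shallow sham replicate 2 and 0.55 without sham replicate 5. With a library left out, the Cx3cr1 value ran from 0.59 (without contralateral replicate 5) to 1.18 (without sham replicate 5). The fit gave Csf1r 0.45 ± 0.27 (154 ± 80.1 CPM in sham, n = 3), and 0.25 without sham replicate 2. It gave C1qb -0.34 ± 0.29 (133 ± 35.7 CPM in sham and 99.5 ± 7.47 CPM contralaterally), the latter from -0.61 without sham replicate 1 to -0.07 without sham replicate 5, and -0.74 with the replicate block. Cx3cr1 means thus stood in the order sham, contralateral, ipsilateral (39.5, 79.8 and 122 CPM), with each neighbouring pair of groups at an edgeR adjusted p of 0.680 or above, whereas C1qb was lowest contralaterally.

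Summed over the 7 genes, footprints made up 0.0717%, 0.0512% and 0.0918% of all counts in sham replicates 1, 2 and 5. The share was 0.0774%, 0.103%, 0.0915% and 0.0858% in contralateral replicates 1, 4, 5 and 6, and 0.133%, 0.114%, 0.107% and 0.137% in ipsilateral replicates 2, 4, 5 and 6. All ipsilateral libraries lay above all others, though the exact 95% binomial interval of ipsilateral replicate 4 (0.0815 to 0.155%, from 40 reads) spans several of them; the intervals cover counting error only. In CPM the sums were 730 ± 215 in sham (n = 3), 916 ± 128 in contralateral and 1275 ± 159 in ipsilateral cortex (SD, n = 4 each). This sum was formed over genes chosen with earlier results known, so it is given with no test.

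**Figure D3:**
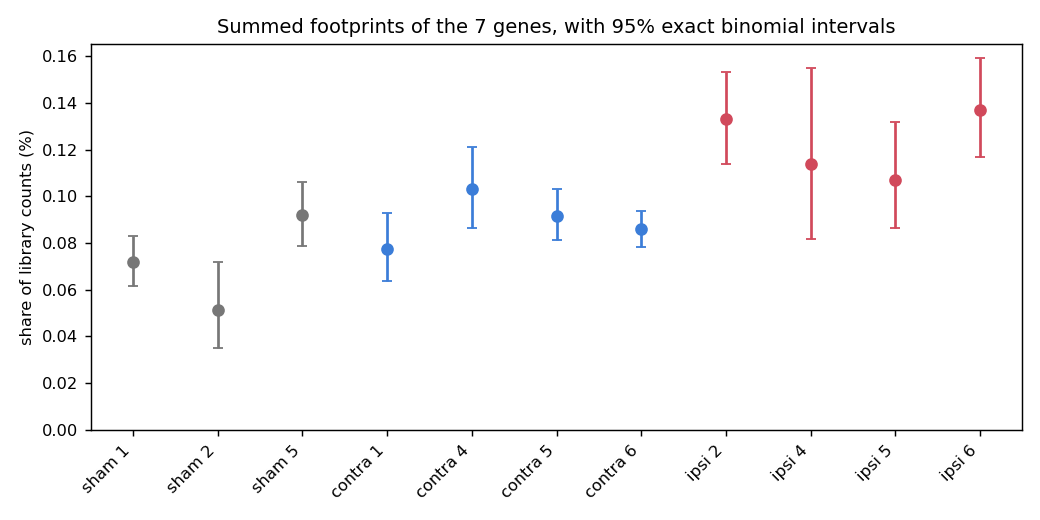
Share of each library's counts on the 7 genes in percent (vertical axis, from 0), with exact 95% binomial intervals for counting error; grey, sham; blue, contralateral; red, ipsilateral. Ipsilateral libraries sit from 0.107 to 0.137%, the others from 0.0512 to 0.103%.

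Levels of different genes were compared as CPM per kb of coding sequence. In sham cortex C1qa (179 ± 26.9 CPM per kb, SD, n = 3) and C1qb (176 ± 47.0) led, followed by Ctss (138 ± 69.6), C1qc (92.1 ± 27.1), P2ry12 (58.5 ± 8.69), Csf1r (52.7 ± 27.3) and Cx3cr1 (37.2 ± 22.5). Neighbours in this order differed by less than the SD of at least one of them, except C1qc and P2ry12, whose gap exceeded both SDs. C1qa stood above 72.1% of tested genes with a coding length in sham cortex and Cx3cr1 above 20.5%. In ipsilateral cortex the order of C1qa (298 ± 59.5 CPM per kb, n = 4), C1qb (290 ± 134), Ctss (241 ± 55.1) and C1qc (201 ± 36.5) was kept, and Cx3cr1 (115 ± 22.5) stood before P2ry12 (87.7 ± 8.56) and Csf1r (77.6 ± 40.0). Here the gaps between C1qc and Cx3cr1 and between Cx3cr1 and P2ry12 exceeded both SDs.

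The C1q chains have coding lengths of 735 (C1qa), 759 (C1qb) and 738 nt (C1qc), so their footprints can be compared almost directly. Of pooled C1q footprints C1qa held 41.7% in sham (exact 95% interval 34.1 to 49.5%), 45.5% in contralateral (40.4 to 50.6%) and 39.2% in ipsilateral cortex (32.5 to 46.1%). C1qc held 20.2% (14.4 to 27.1%), 24.3% (20.1 to 28.9%) and 24.5% (18.9 to 30.9%). C1qb held 38.1% (30.7 to 45.9%), 30.2% (25.7 to 35.1%) and 36.3% (29.8 to 43.2%). These intervals cover counting error of the reads pooled over libraries, not the spread between libraries, and the shares are given with no test. C1qb varied most between ipsilateral libraries, from 24.3% in replicate 5 and 26.2% in replicate 2 to 43.5% in replicate 4 and 51.4% in replicate 6.

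**Figure D4:**
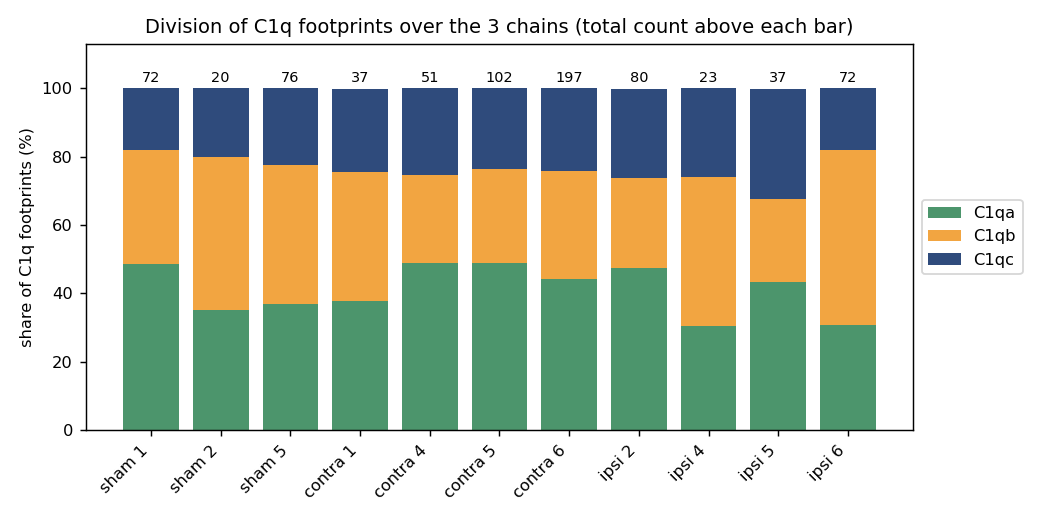
Division of C1q footprints over C1qa, C1qb and C1qc in each library, in percent (vertical axis); the number above a bar is its C1q read count, from 20 in sham replicate 2 to 197 in contralateral replicate 6. The C1qb part is 51.4% in ipsilateral replicate 6 and 24.3% in ipsilateral replicate 5.

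Across the 11 libraries the members varied together to different degrees. Pearson's r of log2 CPM was above 0 for 20 of 21 pairs, with a median of 0.49 and a range from -0.13 (C1qb and Csf1r) to 0.85 (C1qa and C1qc). C1qa also followed P2ry12 (r = 0.82), whereas Csf1r followed Ctss (r = 0.74) and not C1qc (r = 0.04). The points share libraries and their depth, and these values describe them only. Between a member and the 3824 other genes with a mean of at least 50 CPM the median r was -0.02.

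The 5 genes most like the mean standardised profile of the members over the 11 libraries were Hist1h1e (Pearson's r = 0.92), a linker histone gene; Cdkn1a (0.91), the cell cycle inhibitor p21; Gtf3c1 (0.89), a subunit of transcription factor TFIIIC; Sfpq (0.89), a nuclear RNA-binding protein; and Hspa5 (0.89), the endoplasmic reticulum chaperone BiP. Cdkn1a measured 45.6 ± 26.0 CPM in sham (n = 3), 63.1 ± 15.4 in contralateral and 139 ± 64.0 in ipsilateral cortex (SD, n = 4 each). Sfpq measured 103 ± 35.4, 141 ± 32.1 and 230 ± 18.4 CPM. Hspa5 measured 1105 ± 130, 1376 ± 88.5 and 1932 ± 253 CPM and passed the edgeR test against sham (0.79, adjusted p = 0.00932). The others of the 5 did not pass. These r values are the highest among 3824 genes compared over libraries that differ by group, so they are descriptive only. The counts of Hist1h1e are uncertain, since 496 nt of its transcript overlap Hist1h2be, and 93 nt of that of Cdkn1a overlap another annotated gene.

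Ligands and partners of the members were then examined. Of 17 listed genes 4 were tested and 0 passed the edgeR test in any comparison. Cx3cl1, the neuronal ligand of Cx3cr1, measured 1800 ± 140 CPM (SD, n = 3) in sham cortex and 1655 ± 274 CPM (n = 4) ipsilaterally, a change of -0.12 ± 0.16 (edgeR adjusted p = 0.919). Cst3, which encodes cystatin C, a secreted inhibitor of cysteine cathepsins such as cathepsin S, measured 1281 ± 163 CPM in sham, 1485 ± 38.6 contralaterally and 1879 ± 185 CPM ipsilaterally. Every ipsilateral library lay above all others for Cst3, with changes of 0.53 ± 0.15 against sham (adjusted p = 0.155) and 0.33 ± 0.14 against contralateral cortex (adjusted p = 0.530). Cd47 and Sirpa, a pair that restrains phagocytosis, had values of 0.22 ± 0.24 and -0.12 ± 0.18 against sham. Il34, a ligand of Csf1r, and Itgam had 103 counts each and did not pass the filter.

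Of 24 other microglial genes 5 were tested and none passed in any comparison. At an unadjusted p under 0.05 stood 2 against sham, both higher (4.28% of all genes were higher at that level). Among them was Lgmn, the lysosomal protease legumain, whose ipsilateral range overlapped neither other group. Lgmn measured 375 ± 23.9 CPM in sham, 418 in contralateral and 581 in ipsilateral cortex, a change of 0.61 ± 0.19 against sham (edgeR adjusted p = 0.272). Against sham, the microglial Fc receptor-like gene Fcrls stood at 0.88 ± 0.49, Selplg at -0.10 ± 0.37 and the phagocytic receptor gene Mertk at -0.27 ± 0.40.

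Other lysosomal genes showed small differences in the same direction. Of 31 listed genes 26 were tested, and 24 of these had changes above 0 in ipsilateral against sham cortex (median 0.20; 49.9% of all genes tested were above 0, with a median of 0.00). None passed the edgeR test, and 6 were higher at an unadjusted p under 0.05 (4.28% of all genes were). Against contralateral cortex 20 of 26 were above 0 (median 0.18; 51.4% of all genes). Their summed level was 13935 to 15063 CPM in sham, 14290 to 16550 in contralateral and 16441 to 17043 in ipsilateral cortex. The most abundant, Psap, which encodes the saposin precursor, stood at 0.12 ± 0.13 and the cathepsin gene Ctsd at 0.23 ± 0.17 against sham; 808 nt of the Ctsd transcript overlap another annotated gene.

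Of 25 listed complement genes other than C1q, 9 were tested, and none passed the edgeR test. Against sham 4 of 9 had changes above 0 (49.9% of all genes did), with a median of -0.10, and at an unadjusted p under 0.05 stood 2, both lower (3.47% of all genes were lower at that level). Against contralateral cortex 5 of 9 were above 0 (51.4% of all genes), with a median of 0.04. Clu, encoding the complement inhibitor clusterin, measured 2257 ± 452 CPM (n = 3) in sham cortex and 2466 ± 332 CPM (n = 4) ipsilaterally (0.13 ± 0.16, adjusted p = 0.902). Calr, a chaperone that also binds C1q, stood at 0.29 ± 0.15 (adjusted p = 0.672). Sez6l2 and Sez6l, of a neuronal family with complement control domains, stood at -0.17 ± 0.15 and -0.15 ± 0.17; 413 nt of the Sez6l2 transcript overlap another annotated gene.

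Genes of activated microglia were tested in 5 of 26 cases, with 0 passing. Cd9, a membrane tetraspanin also expressed by oligodendrocytes, measured 64.3 ± 29.3 CPM (n = 3) in sham cortex and 169 ± 71.3 CPM (n = 4) ipsilaterally, a change of 1.25 ± 0.35 (edgeR adjusted p = 0.125); 218 nt of its transcript overlap another annotated gene. Apoe stood at 0.27 ± 0.17, B2m at 0.29 ± 0.26, Axl at 0.50 ± 0.50 and Fth1 at -0.01 ± 0.22. The table holds only transcripts with a summed count of at least 101, and the other 21 genes of this list, cytokines among them, were not analysed here. The same is true of all 8 border macrophage, 12 neutrophil and monocyte and 9 lymphocyte markers, so other sources of C1q, Csf1r and Ctss footprints cannot be assessed.

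Markers of other cell types were measured in the same libraries. Oligodendrocyte markers (9 of 14 tested) summed to 2414 to 3094 CPM in sham, 2396 to 3419 in contralateral and 3179 to 7361 in ipsilateral cortex. Of these 9, all were above 0 against sham (49.9% of all genes were), with a median change of 0.90. Against contralateral cortex 4 passed the edgeR test as higher, Mbp, Mag and Cldn11 among them (0.339% of all genes did). Red blood cell genes (4 of 5 tested) summed to 895 to 1324, 566 to 989 and 1041 to 2024 CPM. Of them 2, Hba-a1 and Hba-a2, passed against contralateral cortex as higher, beside the same 0.339% of all genes. Against sham, the 4 tested globin genes changed by 0.20 to 0.28 in ipsilateral cortex and by -0.94 to -0.51 in contralateral cortex. None passed in those 2 comparisons. The near-identical Hba-a1 and Hba-a2 may share reads. Astrocyte markers (15 of 15) summed to 13695 to 17293, 15056 to 19717 and 14774 to 16226 CPM, and neuron markers to 20702 to 23953 contralaterally and 19659 to 22935 CPM ipsilaterally. The part of the oligodendrocyte and red blood cell values in those of the microglial genes was not tested.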

How the data were processed

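The authors deposited 1 table of raw footprint counts, whole numbers for each Ensembl transcript, with a column for each of 11 libraries. Per the series' design text and the labels' protocols, the authors digested cortex with micrococcal nuclease, purified monosomes, captured ribosomes through the large-subunit protein P0, and built small RNA libraries from gel-selected fragments. The submitters' processing notes list Bowtie2, edgeR and mm10 with no role; the counting tool, annotation release and use of strand are not given there or in the labels. Of 9784 transcripts, 9736 matched GENCODE vM21, and the other 48 (0.306% of counts) were left out. As isoforms often repeat the same counts, 1 transcript, that of the highest summed count, stands for each of the 4338 genes.

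The test was edgeR's (4.0.16, R 4.3.3) after filterByExpr (minimum count 10; 3835 genes kept, 503 removed), with TMM factors and robust quasi-likelihood fits of all libraries without a block. P-values were adjusted by Benjamini-Hochberg over all genes of a comparison, at a threshold of 0.05. The SE is the log2 change divided by the square root of F. The fit was tested on simulated data. Alternatives used DESeq2 1.42.0, limma 3.58.1 (voom), other scalings, no filter, the mean over a gene's transcripts, only the 2 groups compared, the replicate block, and left-out libraries. Depth ran from 35068 to 571351 counts.

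The replicate number marks a shared day of surgery, per the series' design text, so it pairs libraries. Deviations from group means correlated across genes by -0.139 to 0.224 (median 0.131) in the 7 same-number pairs. In the 33 others the range was -0.255 to 0.259 (median -0.03). P-values measure the spread between these libraries.

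The members and gene lists were chosen with earlier results of these data known. All members were named. From other lists, all tested genes were eligible where at most 6 were tested, otherwise the 4 with the highest mean CPM, with any gene that passed. The genes most like the members were the 5 with the highest r among genes of at least 50 CPM on average. Values of some listed genes are not reported here.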

Additional observations from a re-analysis of the deposited data

Results flagged for a closer look

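In the ipsilateral group 2 values stood apart from the other 3 libraries by Dixon's test at the 95% level, both in replicate 2: C1qa at 284 CPM (gap over range 0.830) and P2ry12 at 105 CPM (0.894). This was tested in 16 groups of 4 libraries, for the 7 members and their sum, where chance flags about 1 in 20. Dixon's test takes no account of counting error. The 95% Poisson intervals of the flagged values were 201 to 390 CPM for C1qa and 57.2 to 176 CPM for P2ry12.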

How the results depend on the processing

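Over 20 alternatives, ipsilateral minus sham kept its direction and 0 members called in every fit, though DESeq2 gave 4 members no adjusted p there and 1 in ipsilateral minus contralateral. Ipsilateral minus contralateral had 0 members called except without ipsilateral replicate 5 (1, C1qb), so leaving out libraries gave 0 to 1; Csf1r turned to -0.20 without ipsilateral replicate 6 and to -0.05 without contralateral replicate 6, and was 0.23 at most with a library left out (ipsilateral replicate 4), and 0.26 with the replicate block. In contralateral minus sham P2ry12 turned to -0.01 with limma-voom, -0.19 with the replicate block, -0.03 without sham replicate 1 and -0.14 without contralateral replicate 4, and was highest at 0.27 without sham replicate 5. The cause was not tested. The block changed no other direction and no call; with it the median change of the members was 0.63, 0.43 and 0.14 in the 3 comparisons. Without the 2 shallowest libraries these were 0.67, 0.51 and 0.14. Leaving out single libraries gave medians of 0.55 to 0.96, 0.39 to 0.61 and 0.14 to 0.55.

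Over all genes, ipsilateral minus sham called 4, 10 with DESeq2, and 0 (without sham replicate 1) to 22 (without ipsilateral replicate 5) with a library left out. Ipsilateral minus contralateral called 14, 8 with upper-quartile factors, 7 without the 2 shallowest libraries, and 4 (without contralateral replicate 6) to 26 (without ipsilateral replicate 5). Contralateral minus sham called 0, 2 with DESeq2, and up to 3 (without sham replicate 5). Depth limits every member: the 2 shallowest libraries held at most 10 counts of any.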
